A study of Danio rerio with 19 samples.

Results

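The negative limb of the circadian clock was examined at 5 zebrafish loci, per1b, per2, cry1aa, cry2 and bhlhe40. The members were every H3K9me3 peak that overlapped one of these loci or lay within 10 kb of it, in any of the 6 peak lists of the series. There were 48 such peaks. Merged where they overlapped by at least 1 bp, they formed 14 sites, out of 90523 merged regions over the genome. Trimethylation of lysine 9 on histone H3 (H3K9me3) marks heterochromatin. It was measured by ChIP-seq in brains of wild-type (SAT) zebrafish aged 4, 12 and 20 months (4 M, 12 M and 20 M), taken at ZT4 and ZT16 after entrainment to alternating light and dark, where ZT4 is 4 h and ZT16 is 16 h after lights on. Each of the 6 combinations of age and time had 3 H3K9me3 libraries, and the authors deposited 1 list of peaks per combination, called with MACS2 on the triplicate against GRCz10 and named here by its age and time. A list holds no value per library, so no spread between replicates, no depth per library and no test between groups could be given. Where a site is missing below, only the call is known to be missing, not the mark. Whole brain was used, so a mark in few cells and a weak mark in many cannot be told apart, and peak lists hold no marker by which the labelled tissue could be checked.

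In the vertebrate clock, Clock and Bmal proteins bind E-boxes and drive transcription of the per and cry genes. Period and Cryptochrome proteins then join in a complex that represses Clock and Bmal, and Bhlhe40 is a basic helix-loop-helix factor that competes for E-boxes and adds a further arm of repression. In zebrafish, per2 and the cry1a gene, here under its name cry1aa, are also known to be induced by light. The comparison asks where the repressors themselves carry H3K9me3, and at which ages and times.

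All 5 loci had a peak within 10 kb in 4 M ZT4 and in 20 M ZT16, with 14 peaks in each list. At 4 M ZT16 there were 11 peaks at 4 loci, with bhlhe40 the locus without a peak. At 20 M ZT4 there were 6 peaks, 5 at per2 and 1 at cry1aa. At 12 M ZT16 there were 3 peaks, all at per2, and at 12 M ZT4, whose list holds 29 peaks in all, there were none. As background, the same distance was applied to the 357 annotated loci that the study lists for diurnal or age-related expression, the 5 loci among them. A peak lay within 10 kb of 81.5% of them in 4 M ZT4, 75.4% in 4 M ZT16, 0% in 12 M ZT4, 19.3% in 12 M ZT16, 39.8% in 20 M ZT4 and 85.7% in 20 M ZT16. In the same order of lists, 5, 4, 0, 1, 2 and 5 of the 5 repressor loci had a peak, close to these shares. With only 5 loci, not matched in length to the background, the comparison could hardly have shown a difference.

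**Figure D1:**
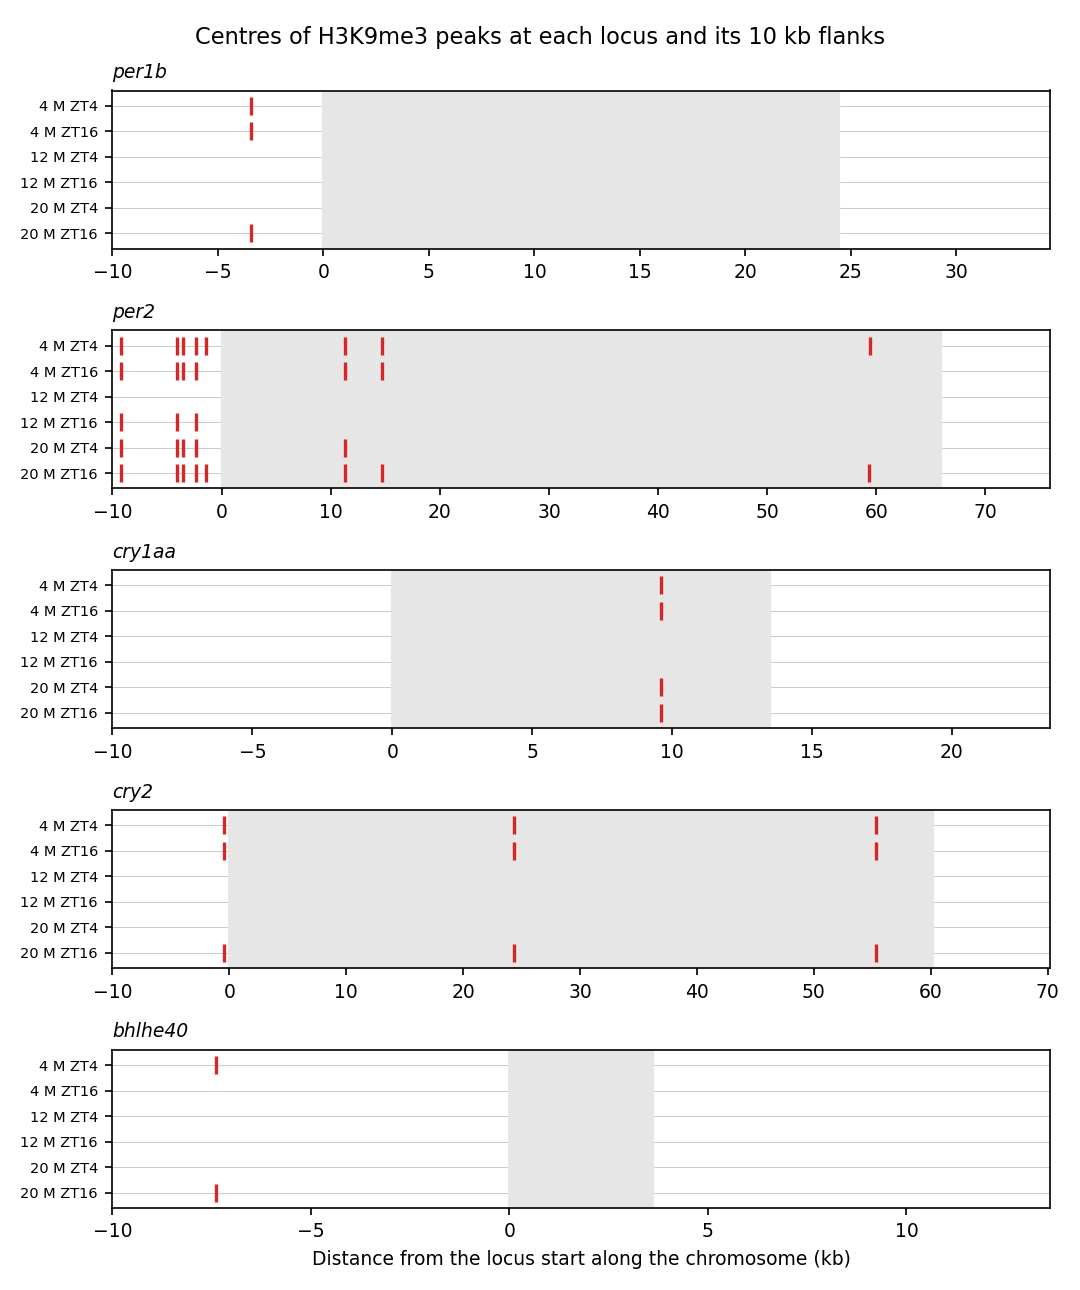
The x axis gives the distance of each peak's centre from the lower-coordinate end of its locus in kb, the rows are the 6 lists, the grey band is the locus and each red mark is 1 peak. The 8 sites outside the loci all lie on the lower-coordinate side, 5 of them before per2, and marks of different lists fall at the same positions.

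The same sites recurred from list to list. Each of the 14 sites was present in 4 M ZT4 and in 20 M ZT16, and 74.4% of all merged regions were present in both of those lists. Of the 14 sites, 3 were in 5 lists, 3 in 4 lists, 5 in 3 lists and 3 in 2 lists. Among all merged regions, 9.07% were in 5 lists, 11.8% in 4, 40.1% in 3 and 13.8% in 2, and 25.2% were in 1 list, a class with no repressor site. The edges of a site moved little. Over the lists that held a site, the starts spread over a median of 5.5 bp and at most 39 bp, and the ends over a median of 7.5 bp and at most 29 bp. Peak length ran from 44 to 154 bp over the 48 peaks. The median of 75.5 bp was close to the list medians of 70 to 76 bp at 4 M and 20 M. At 12 M ZT16 the list median was 117 bp, and the 3 repressor peaks there were shorter, at 55 to 106 bp.

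Scores were described here only as percentiles within their own list, where 100 is the highest-scoring peak. The repressor peaks had a median percentile of 69.7 in 4 M ZT4 (6.83 to 96.2), 61.3 in 4 M ZT16 (23.9 to 91.5), 63.3 in 12 M ZT16 (47.8 to 83.1), 51.4 in 20 M ZT4 (18.1 to 89.9) and 69.3 in 20 M ZT16 (24.9 to 96.1). They thus covered most of the range of scores. Above percentile 50 lay 10 of 14 peaks in 4 M ZT4 and 9 of 11 in 4 M ZT16. The numbers were 2 of 3 in 12 M ZT16, 3 of 6 in 20 M ZT4 and 11 of 14 in 20 M ZT16. These lists hold 70317, 55874, 8755, 19177 and 87948 peaks in that order. A percentile therefore stands for a different rank in each, and a lower one in a shorter list does not mean a weaker mark.

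**Figure D2:**
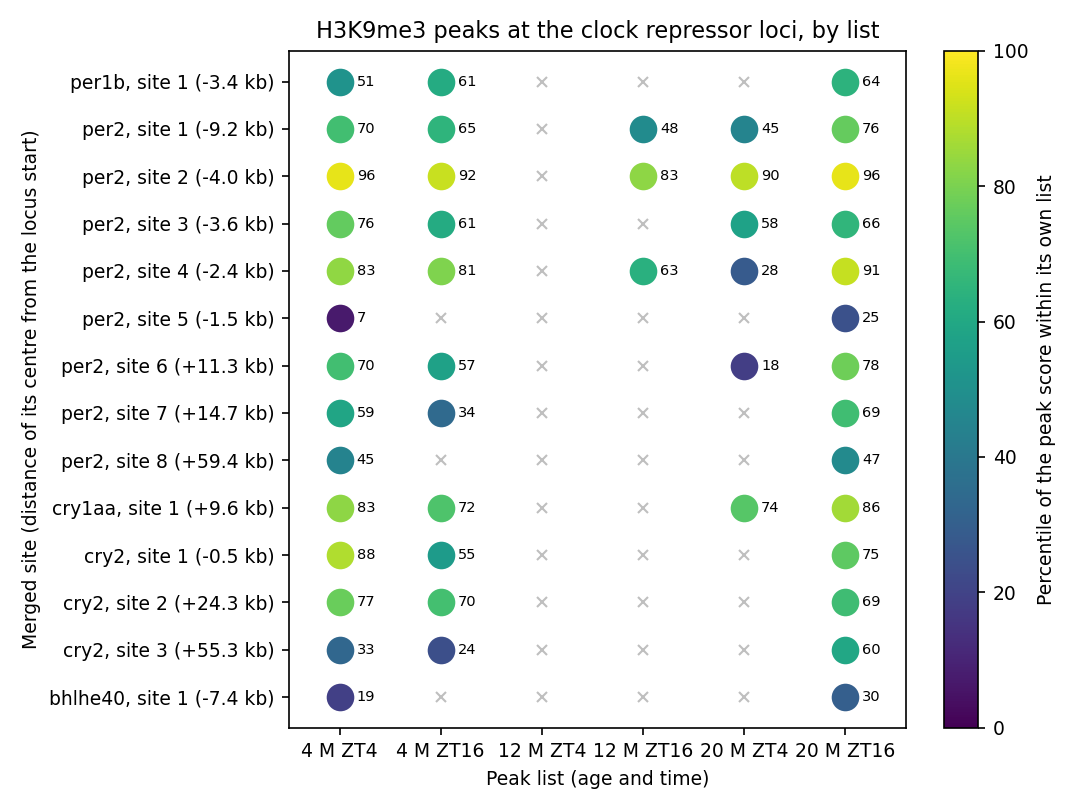
Rows are the 14 merged sites with the distance of their centre from the locus start, columns are the 6 lists, a coloured dot with its value is the percentile of the score within that list and a cross means no peak. Site 2 before per2 has the highest value in each of the 5 lists that hold repressor peaks, from 83.1 in 12 M ZT16 to 96.2 in 4 M ZT4.

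The flanked locus of per2, which encodes a Period protein, held most of the called peaks, with 8 of the 14 sites and 30 of the 48 peaks. At 85878 bp it was also the longest of the 5 flanked loci. The per2 locus itself (XLOC_032947) lies on chromosome 2 of GRCz10 from 48455371 to 48521248, which is 65878 bp. In the order of the lists above, it had 8 peaks in 4 M ZT4, 6 in 4 M ZT16, 0 in 12 M ZT4, 3 in 12 M ZT16, 5 in 20 M ZT4 and 8 in 20 M ZT16. Of the 8 sites, 5 lay in the 10 kb before the locus, 3 inside it and none in the 10 kb after it. RefSeq gives hes6 and LOC110437927 as the protein-coding neighbours of per2, and the distance of the sites to them was not measured. "Before" means the side of lower coordinates throughout, since the tables used give no strand, and whether a site lies at a promoter was not analysed here.

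The outermost per2 site ran from chr2:48446095-48446248, 9123 bp before the locus, and was in every list but that of 12 M ZT4. Its percentile was 69.7 in 4 M ZT4, 65.1 in 4 M ZT16, 47.8 in 12 M ZT16, 45.2 in 20 M ZT4 and 76.2 in 20 M ZT16. With 154 bp it was the longest of the 14 sites. The next 4 sites formed a cluster from 48451263 to 48453922, within 2660 bp and ending 1449 bp before the locus, with gaps of 382 to 1110 bp between them. Runs of 4 regions in a span no longer than this held 3.42% of all merged regions. The cluster was singled out after its values were seen.

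The strongest site of the cluster, at chr2:48451263-48451390, stood at percentile 96.2 in 4 M ZT4, 91.5 in 4 M ZT16, 83.1 in 12 M ZT16, 89.9 in 20 M ZT4 and 96.1 in 20 M ZT16, the highest of the repressor peaks in each of these lists. The site at chr2:48452951-48453059 was in the same 5 lists, at percentiles 83.4, 80.5, 63.3, 28.5 and 91.2 in the same order. It thus lay above the middle of each list that held it except 20 M ZT4. That list was shorter than those of 4 M and 20 M ZT16, but longer than that of 12 M ZT16, which held the site at 63.3. The site at chr2:48451772-48451841 was in 4 lists and missing at 12 M, at percentiles 76.1 in 4 M ZT4, 61.3 in 4 M ZT16, 57.5 in 20 M ZT4 and 65.5 in 20 M ZT16. The site nearest to the locus, at chr2:48453876-48453922, was the weakest, with percentiles of 6.83 in 4 M ZT4 and 24.9 in 20 M ZT16, and no other list held it.

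Inside per2, the sites lay 17.0%, 22.2% and 90.1% of the way along the locus. The site at chr2:48466596-48466681 was present at percentiles 69.7 in 4 M ZT4, 57.4 in 4 M ZT16, 18.1 in 20 M ZT4 and 77.8 in 20 M ZT16. The site at chr2:48470019-48470094 was in 3 lists, at 58.7 in 4 M ZT4, 34.3 in 4 M ZT16 and 69.4 in 20 M ZT16. The site at chr2:48514714-48514770 was listed only at 4 M ZT4 (44.9) and 20 M ZT16 (47.3). A stretch of 44619 bp inside the locus, 67.7% of its length, held no peak in any list. Of windows of 44415 bp over the numbered chromosomes, 9.68% held no merged site. Those windows have fixed places, while the stretch was picked as the longest one without a peak in the locus. The share therefore does not say how rare such a stretch is.

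The period gene per1b (XLOC_065238) lies on chromosome 7 from 50547148 to 50571562. No list had a peak inside its 24415 bp. Of windows of 23607 bp over the numbered chromosomes, 26.9% held no merged site. The only site of per1b, at chr7:50543691-50543759, lay 3389 bp before the locus and was listed at percentile 51.4 in 4 M ZT4, 61.3 in 4 M ZT16 and 64.2 in 20 M ZT16, near the middle of each list. At 20 M ZT4 the nearest peaks were 76362 bp before and 22756 bp after the locus, and at 12 M ZT16 they were 130327 bp before and 254536 bp after it.

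The cryptochrome genes encode the partners of Period in the repressor complex. The cry1aa locus (XLOC_052589) lies on chromosome 4 from 12014189 to 12027688, and its single site was inside it, at chr4:12023766-12023862, 70.9% of the way along. The percentile of this site was 83.0 in 4 M ZT4, 72.2 in 4 M ZT16, 73.8 in 20 M ZT4 and 86.0 in 20 M ZT16. It was therefore above percentile 70 in each of the 4 lists that held it, and besides those of per2 it was the only repressor site listed at 20 M ZT4. It was missing at 12 M, where the nearest ZT16 peaks lay 302042 bp before and 295141 bp after the locus.

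The cry2 locus (XLOC_047740) lies on chromosome 25 from 13748514 to 13808694 and had 3 sites, each listed at 4 M ZT4, 4 M ZT16 and 20 M ZT16 and in no other list. The site at chr25:13747983-13748061, 453 bp before the locus and the nearest of the 8 outer sites to its locus, was at percentiles 88.3, 54.6 and 75.3 in that order. The site at chr25:13772812-13772891 was at 77.3, 70.0 and 69.1. The site at chr25:13803768-13803841 was weaker, at 33.0, 23.9 and 59.5. At 20 M ZT4 the nearest peaks were 117416 bp before and 52199 bp after the locus. The whole of cry2 and its flanks thus held no peak there, while cry1aa had 1. In that list, 58.5% of windows of the numbered chromosomes as long as flanked cry2 held any peak. For windows as long as flanked cry1aa the share was 32.7%. On the chromosome of each locus alone, the shares were 62.8% for cry2 and 23.1% for cry1aa. The difference between the 2 genes was not tested.

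The bhlhe40 locus (XLOC_008046), the shortest of the 5 with 3607 bp, lies on chromosome 11 from 35497668 to 35501274 and held no peak itself in any list. Even of windows of 10 kb, the median one held 0 merged sites. The only site of bhlhe40, at chr11:35490249-35490297, lay 7371 bp before the locus. It was 49 bp long, had the same edges at 4 M ZT4 and 20 M ZT16, and was a weak peak in both, at percentiles 18.8 and 29.7. In RefSeq's annotation of GRCz12tu, used here for names and neighbours only, the protein-coding neighbours of bhlhe40 are arl8bb and itpr1b, and the distance of this site to them was not measured.

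By time of day, the counts of repressor sites differed in the same direction as the sizes of the full lists, though not always in proportion. At 4 M, 3 of the 14 ZT4 sites were missing at ZT16, against 21.3% of all ZT4 peaks, and these were per2 sites 5 and 8 in coordinate order and the site of bhlhe40, all below percentile 50 in the ZT4 list. At 20 M, 8 of the 14 ZT16 sites were missing at ZT4, against 78.4% of all ZT16 peaks. These 8 were 3 per2 sites, the 3 cry2 sites and those of per1b and bhlhe40. At 12 M, the 3 ZT16 sites of per2 were missing at ZT4, as were 99.7% of all ZT16 peaks. No repressor site ran the other way in these 3 comparisons, but such regions were rare over the whole genome. The most frequent pattern with 4 M ZT16 and without 4 M ZT4 held 0.285% of all merged regions. The most frequent with 20 M ZT4 and without 20 M ZT16 held 0.156%. Every merged region of 12 M ZT4 was also in 12 M ZT16. The lack of such a site therefore did not set the repressor loci apart.

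By age, 8 of the 14 sites of 4 M ZT4 were missing at 20 M ZT4, against 73.3% of all 4 M ZT4 peaks, and they were the same 8 sites as in the comparison of times at 20 M. At ZT16, 3 of the 14 sites of 20 M were missing at 4 M, against 36.6% of all 20 M ZT16 peaks. The 12 M ZT16 list lacked 8 of the 11 sites of 4 M ZT16, against 84.7% of all peaks there, and 11 of the 14 sites of 20 M ZT16, against 90.3% of all peaks there. These comparisons share lists and are not independent of each other.

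Which repressor sites were shared went with their score. The 4 M ZT4 peaks were split by score into 4 classes of about equal size. In the highest class, 4 of the 6 repressor sites were also listed at 20 M ZT4, where 71.6% of all peaks in that class were. In the next class it was 2 of 4 sites, against 24.0% of all peaks, and in the lower classes 0 of 4 sites, against 2.77% and 9.07%. Within the highest class, the sites missing at 20 M ZT4 were those of cry2, at percentiles 88.3 and 77.3 of 4 M ZT4. Depth and enrichment of the libraries are not recorded in the lists, and their part in these differences was not tested.

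The 4 M lists and that of 20 M ZT16 were also reduced by score to about the 19177 peaks of 20 M ZT4, which stayed whole. The list of 20 M ZT4 thus kept its lowest scores, down to 10, while that of 20 M ZT16 was cut at 268. With these lists, the order of the counts changed. The repressor loci then had 6 peaks in 4 M ZT4, 5 in 4 M ZT16, 6 in 20 M ZT4 and 3 in 20 M ZT16. The surplus of ZT16 over ZT4 at 20 M, 8 peaks in the full lists, became a difference of -3, and that of 20 M over 4 M at ZT16 went from 3 to -2. The sites present in all 4 lists of this size were the per2 sites at 48451263 and 48452951 and that of cry1aa. The sites of per1b and bhlhe40 were in none of them, and cry2 kept 2 sites in 4 M ZT4, 1 in 4 M ZT16 and none at 20 M. No share over all merged regions was taken with these reduced lists. The counts therefore cannot tell whether the repressor loci differ from other regions.

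Set against the 500 kb around each locus, the flanked per2 locus had the higher density of merged sites and the other 4 flanked loci the lower. The flanked per2 locus had 9.32 sites per 100 kb (exact Poisson 95% interval 4.02 to 18.4, which covers counting error only) and its surroundings 4.35, a ratio of 2.14. Inside per2 alone, without its flanks, there were 4.55 sites per 100 kb, close to the surroundings. The ratio was 0.29 at per1b (2.25 against 7.68 sites per 100 kb), 0.45 at cry1aa (2.99 against 6.65), 0.63 at cry2 (3.74 against 5.95) and 0.72 at bhlhe40 (4.24 against 5.88). For merged sites, the density of the surroundings lay inside the interval of the locus at each of the 5 loci. List by list, this did not hold for per2 in the shorter lists. At 20 M ZT4 its density was 5.82 peaks per 100 kb (1.89 to 13.6) against 0.97 around it, a ratio of 6.03 from 5 peaks at the flanked locus and 4 in the surroundings. Of those 5 peaks, 1 lay inside per2 and 4 in its flanks. At 12 M ZT16 it was 3.49 per 100 kb (0.72 to 10.2), and the 3 peaks before per2 were the only ones in the 500 kb around it. The intervals take in the counting error of the locus and not that of its surroundings, and these differences were not tested.

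Windows of equal length gave the same order. At per1b, cry1aa and bhlhe40, with 1 site each, the share follows from the window length, so their order adds nothing to the comparison. All numbered chromosomes were cut into windows as long as each flanked locus. Of the windows of 85878 bp, 22.9% held at least the 8 merged sites of per2, and the median window held 5. Of the windows as long as flanked per1b, 90.3% held at least its 1 site. The share was 83.7% for the 1 site of cry1aa, 81.5% for the 3 sites of cry2 and 73.1% for the 1 site of bhlhe40. By list, at least as many peaks as at per2 were found in 11.9% of windows in 4 M ZT4 (8 peaks), 17.5% in 4 M ZT16 (6 peaks), 5.27% in 12 M ZT16 (3 peaks), 3.23% in 20 M ZT4 (5 peaks) and 21.5% in 20 M ZT16 (8 peaks). The per2 count was thus in the upper part of the windows in each of these 5 lists, and farthest up in those of 12 M ZT16 and 20 M ZT4. Of the 8 per2 sites, the 5 in the 10 kb before the locus make 50 per 100 kb, and the 3 inside it make 4.55. Of 133963 windows of 10 kb, 0.516% held at least 5 sites, a stretch that was chosen after its values were seen.

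**Figure D3:**
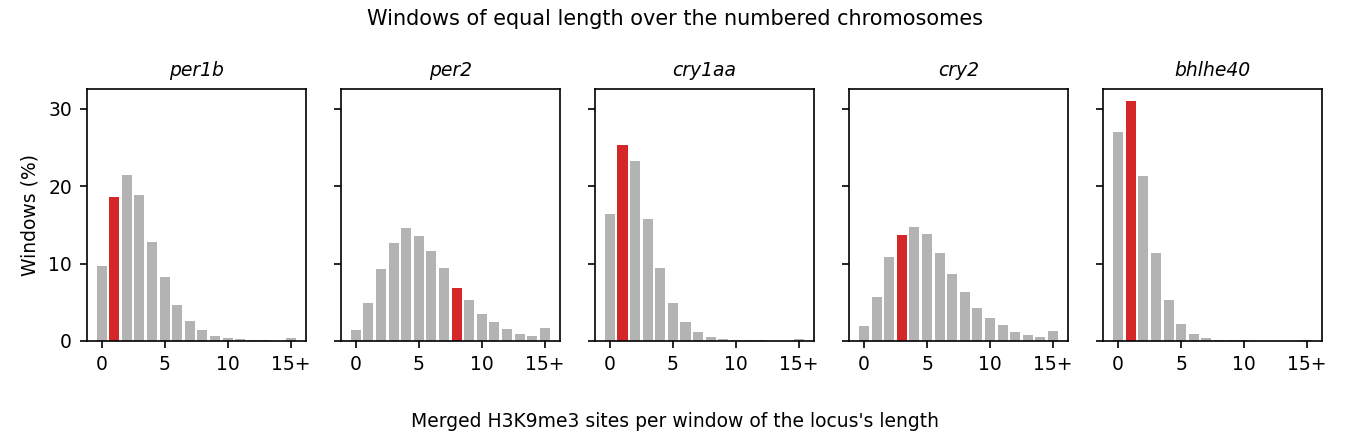
Each panel shows, for windows as long as the flanked locus, the percentage of windows (y axis) by the number of merged sites they hold (x axis, 15 or more pooled), with the number at the locus in red. The red bar lies at or below the middle of the distribution for 4 loci and to its right for per2, where 22.9% of windows hold at least as many sites.

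Another 12 clock genes with loci in the study's tables were counted in the same way. A peak lay within 10 kb of 11 of them in 4 M ZT4, 10 in 4 M ZT16, 0 in 12 M ZT4, 4 in 12 M ZT16, 5 in 20 M ZT4 and 11 in 20 M ZT16. The median density of merged sites was 5.49 per 100 kb over the 357 annotated loci (quartiles 3.24 and 8.73). Over the 5 repressor loci it was 3.74, which lies between these quartiles, and over these 12 genes it was 6.93. The highest density was that of nr1d2a, which encodes a nuclear receptor of the Rev-erb family, with 9 sites or 19.1 per 100 kb (8.74 to 36.3) against 7.73 around it. The related gene nr1d1 had no site, alone among the 17 clock loci. At 12 M ZT16, peaks lay at nr1d2a (2), nr1d4a (1), nr1d4b (4) and clocka (1), which encodes the activator that the repressors act on.

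The third period gene, per3, had 5 sites or 6.02 per 100 kb, and bhlhe41, the paralogue of bhlhe40, had 2 or 4.61 per 100 kb, neither inside its locus. The flanked loci of nfil3-2 and nfil3-6 overlap and share 2 sites, and the loci of nr1d4a and nr1d4b span 171678 and 288705 bp as the study's assembly drew them, so these counts can include sequence of neighbouring genes. Like nr1d2a, per2 stood in the upper part of the order of clock loci, with 3 loci above it, while the other 4 repressor loci took 4 of the 5 lowest places. The intervals of neighbours in this order overlap, so the order is a description.

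**Figure D4:**
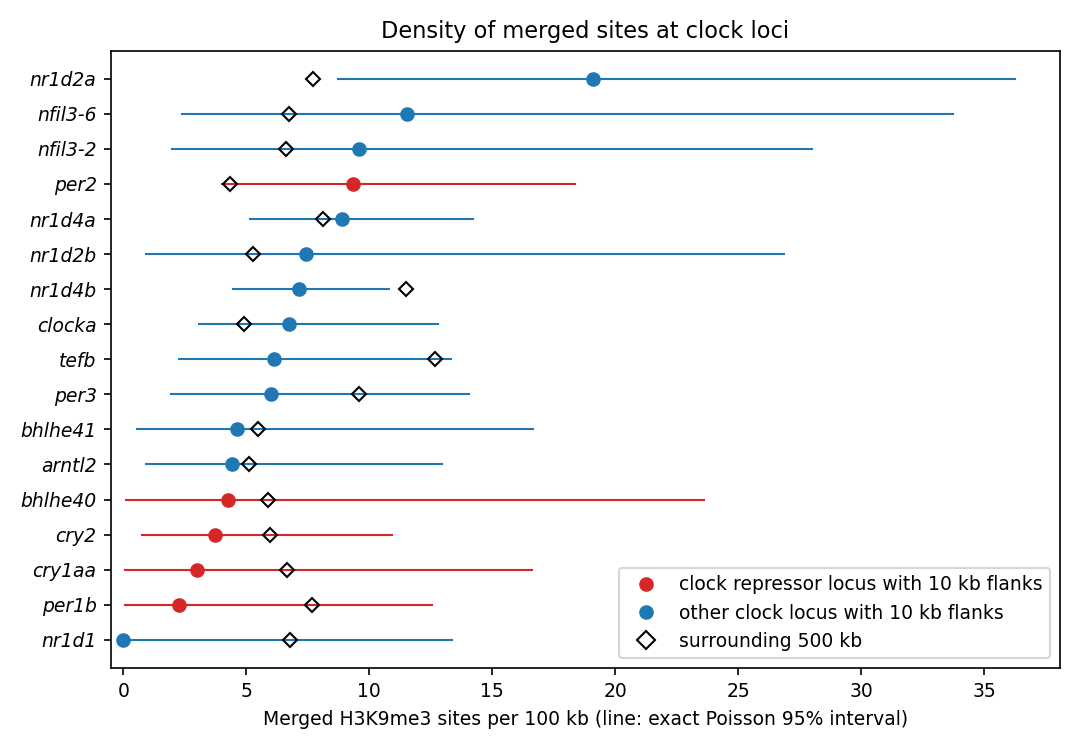
The x axis gives merged H3K9me3 sites per 100 kb for each of the 17 clock loci with 10 kb flanks (dots, red for the 5 repressor loci), with the exact Poisson 95% interval as a line, and open diamonds give the surrounding 500 kb. The diamonds of the 5 repressor loci fall within their lines, and per2, at 9.32, is the repressor locus farthest to the right.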

How the data were processed

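Brain H3K9me3 ChIP-seq of 6 groups with 3 libraries each was used through the 6 deposited peak lists. The authors aligned the reads (Bowtie2, GRCz10) and ran MACS2 (2.2.1 in the submitters' processing notes) once per triplicate. Each deposited peak has a score, a whole number with no named scale, which was ranked only within its own list. The exception was the score minimum among the alternatives, which was the same raw value for all lists. The library made with a GFP antibody was not analysed here.

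Loci were taken from the study's supplementary gene lists, which draw them from its transcript assembly. The 5 members, all described here, and the list of 12 other clock genes (per3, bhlhe41, nr1d1, nr1d2a, nr1d2b, nr1d4a, nr1d4b, nfil3-2, nfil3-6, tefb, clocka and arntl2) were chosen with earlier results of these data known. Of the other clock genes, those at either end of the order of density and those with a site at 12 M were to be named, and per3 and bhlhe41 were added as relatives of members. Positions are counted from 1. Windows ran from the start of each of the 25 numbered chromosomes to its last peak. Surroundings were 500 kb centred on the locus, without its flanked window. Percentiles count peaks of lower score plus 0.5 of those with an equal score. Promoter and peak sequences and their motifs were not analysed here. Python 3.11.15, numpy 2.4.6, pandas 2.3.3, scipy 1.17.1, statsmodels 0.14.6 and matplotlib 3.10.9 were used, and the overlap code was checked on planted intervals and against bedtools 2.31.1. Alternatives were the flank, a score minimum, lists of equal size, joining within 1 kb, wider surroundings and windows of the same chromosome.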

Additional observations from a re-analysis of the deposited data

Results flagged for a closer look

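The difference in the number of peaks at the 5 repressor loci between the times of day went opposite ways at different ages. ZT16 minus ZT4 was -3 at 4 M (11 against 14 peaks), 3 at 12 M (3 against 0) and 8 at 20 M (14 against 6). The difference between ages also turned with the time, with 20 M minus 4 M at -8 at ZT4 and 3 at ZT16. Each number comes from 1 list per group, so these differences were not tested. The lists differ in size in the same directions, from 29 peaks at 12 M ZT4 to 87948 at 20 M ZT16.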

How the results depend on the processing

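Other settings gave 179 values for 66 results. A count was taken as unchanged within 1.5 times, a density ratio inside its Poisson interval and a share of windows inside its Wilson interval. Of the 179, 137 were unchanged, 40 moved and 2 reversed. Part of the unchanged values could hardly move, so this tally does not measure robustness. The interval of a locus with 1 site is wide, as at per1b (0.06 to 12.5 per 100 kb). The lowest scores of repressor peaks, 46 in 4 M ZT4, 57 in 4 M ZT16 and 98 in 20 M ZT16, exceed both score minima used. The counts of 0 at 12 M ZT4 could not fall. With no flank, the peaks at the 5 loci numbered 6 in 4 M ZT4, 5 in 4 M ZT16, 0 in 12 M ZT16, 2 in 20 M ZT4 and 6 in 20 M ZT16. The loci with a peak were then 3 in 4 M ZT4, 0 in 12 M ZT16 and 3 in 20 M ZT16, the merged sites 6, and ZT16 minus ZT4 gave -1 (4 M), 0 (12 M) and 4 (20 M), while 20 M minus 4 M was -4 at ZT4 and 1 at ZT16. With a flank of 3 kb, the peaks numbered 9, 7, 1, 3 and 9 in the same order of lists, the loci with a peak 3 in 4 M ZT4 and 3 in 20 M ZT16, and the difference at 12 M was 1. These moves follow from the smaller windows. With a score of at least 20, 1 peak was left at 12 M ZT16 and the difference there was 1, and with a score of at least 30 there were 0 peaks and 0 loci, and the difference was 0. With lists of equal size, the peaks were 6 in 4 M ZT4, 5 in 4 M ZT16 and 3 in 20 M ZT16, and the loci with a peak 3 in 4 M ZT4 and 2 in 20 M ZT16. ZT16 minus ZT4 was then -1 at 4 M and turned to -3 at 20 M, and 20 M minus 4 M was 0 at ZT4 and turned to -2 at ZT16. The 12 M lists were not reduced, and that of 20 M ZT4 set the size and stayed whole. With windows of the same chromosome only, the shares of windows with as many peaks as cry1aa moved. They went from 69.4% to 61.3% in 4 M ZT16, from 32.7% to 23.1% in 20 M ZT4 and from 82.8% to 77.6% in 20 M ZT16. The share of annotated loci with a peak was not taken under the alternatives, so their counts of loci with a peak have no background. No paired analysis was possible because each group has 1 list and no value per library, and for the same reason no replicate could be left out. The paper states a read number for its ChIP-seq, but the depth of each library behind the lists is unknown.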

Other observations

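All 8 repressor sites outside the loci lay on the side of lower coordinates, and none of the 5 loci had a site in the 10 kb after it. The nearest merged site after each locus was 21183 bp away at per1b, 24456 bp at per2, 20708 bp at cry1aa, 52180 bp at cry2 and 18914 bp at bhlhe40. This was noticed in the data and not tested, and with 5 of the 8 sites before per2 it rests largely on that locus.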
